A study of Mus musculus with 8 samples.

Results

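Translation efficiency (TE), the ribosome-protected fragments (RPFs) of a gene relative to its mRNA, was compared between Dis3l2 knockout and heterozygous mouse embryonic stem cells (mESCs). The genes were all those with a mean deposited value of at least 100 over the 4 input libraries and of at least 200 over the 4 RPF libraries, which left 2439 of the 8125 listed genes. KO cells were Dis3l2 -/-, made by CRISPR/Cas9 editing, and Control cells were Dis3l2 +/-, so the controls also carried 1 disrupted allele. Both were undifferentiated TC1 mESCs kept without feeders in medium with LIF and serum, and both were treated with cycloheximide before lysis. Input mRNA and RPFs were each sequenced in 2 libraries a genotype, 8 in all, which the study's methods describe as 2 biological replicates of cultures. No source used here says from how many edited clones each genotype came, so clone and genotype cannot be told apart. KO and Control are named here as the libraries are labelled, and the direction of the changes is not settled. Over the whole table the class of differential translation deposited by the authors runs opposite to KO over Control by these labels. Genes of the class Down have the higher median TE in libraries labelled KO, and those of the class UP the lower. Dis3l2 itself was not analysed here, and no source used here says whether the labels or the class are right. Each higher or lower below would turn round if the labels were exchanged.

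A translating ribosome shields a short piece of its mRNA from nuclease, and the number of such pieces, set against the amount of the mRNA, gives the ribosome load of each transcript. DIS3L2 is a cytoplasmic 3′ to 5′ exoribonuclease that degrades uridylated structured RNAs, among them 7SL, the RNA of the signal recognition particle (SRP). SRP brings ribosomes that have begun a secreted or membrane protein to the translocon of the endoplasmic reticulum (ER). The comparison therefore asks which mRNAs, and whether those of the ER route, gained or lost ribosomes for their amount of mRNA when Dis3l2 was lost.

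The input libraries held 9043982 and 33609787 reads in KO and 8585206 and 8382211 in Control. The RPF libraries held 268255 and 140163 reads in KO and 558962 and 1126782 in Control. The genes tested had a median of 51 and 27 RPF reads in KO and of 106 and 214 in Control, and 64 of them had fewer than 10 reads in KO RPF replicate 2. Correlated across these genes on the log2 scale, and genes are no independent replicates, the input libraries gave a Pearson's r of 0.987 to 0.995. It was 0.895 between the KO RPF libraries and 0.960 between the Control RPF libraries, and 0.874 to 0.906 between a KO and a Control RPF library. The KO RPF libraries were thus no more alike than KO RPF replicate 2 and Control RPF replicate 2. The threshold left Rbm19 (mean RPF value 200.1) just inside and Hmgxb4 (199.5) and Tcf20 (199.6) just outside, and by input Napa (100.1) just inside and Uhrf1bp1 (99.6) just outside.

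TE differed between KO and Control for 40 of the 2439 genes (limma, adjusted p under 0.05), which is 1.64% of those tested. TE was higher in KO for 13 genes (0.533%) and lower for 27 (1.11%). Genes of the translation machinery stood on both sides. Ribosomal protein genes made up 8 of the 13 higher and 4 of the 27 lower genes, and histone genes 3 of the 13 and 1 of the 27. The other 22 lower genes included translation initiation factors, splicing factors, a subunit of the RNA exosome and the Nodal co-receptor gene Tdgf1. Among the called genes the largest fall was that of the histone gene Hist1h4b (log2 change -3.30) and the largest rise that of Rps27 (1.55). Adjusted p-values of the 40 genes lay close to the threshold, between 0.0224 and 0.0495, and the smallest change called was 0.72 on the log2 scale. A further 349 genes had an unadjusted p under 0.05 without passing the adjustment, which makes 389 in all (15.9%). The change was below 0 for 1360 genes (55.8%).

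**Figure D1:**
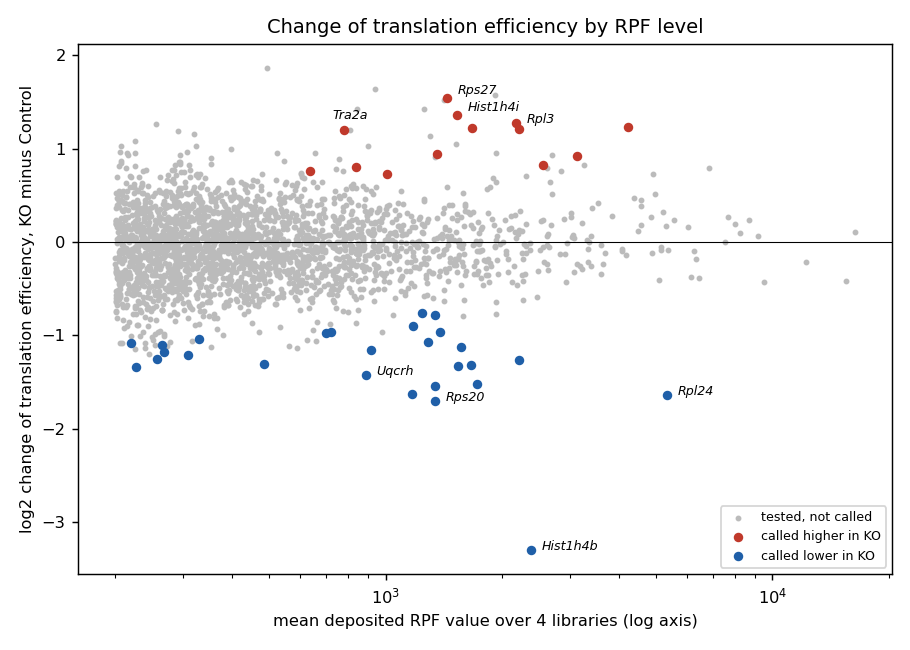
Log2 change of translation efficiency (KO minus Control) of each gene tested against its mean deposited RPF value over 4 libraries (log axis). The 13 genes called higher are red, the 27 called lower are blue and the rest grey, and Hist1h4b at -3.30 lies apart from all others.

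The changes lay in the RPF libraries more than in the input. Over the genes tested the log2 change of RPF had an SD of 0.41, that of input 0.13 and that of TE 0.41. The tested genes had a median of 27 to 214 reads in an RPF library and of 1597 to 6394 in an input library. The part of this depth in the SDs was not tested. Between genotypes 85 genes differed in RPF (3.49% of those tested, 46 higher and 39 lower in KO) and 11 in input (0.451%, 9 higher and 2 lower). Of the 40 genes with a changed TE, 33 were also called in RPF and 0 in input (limma), and their largest input change in either direction was 0.30 on the log2 scale. In all 40 the TE of KO and Control did not overlap, which was also so for 47.8% of all genes tested. A change of at least 2-fold was fitted for 64 genes (2.62%), of which 28 were called.

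**Figure D2:**
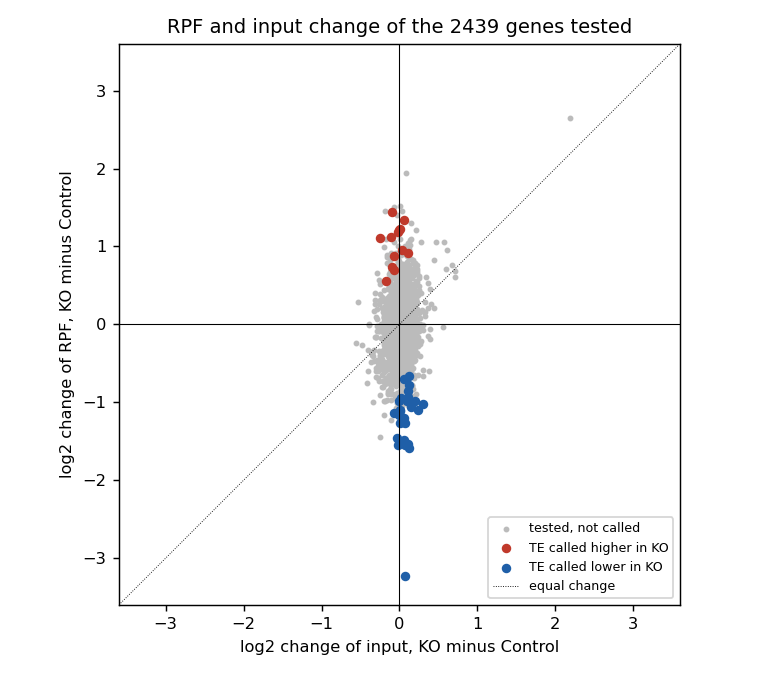
Log2 change of RPF (vertical) against log2 change of input (horizontal), both KO minus Control, for the 2439 genes tested, with the 13 genes of higher TE in red and the 27 of lower TE in blue. The coloured points spread along the vertical axis, and the one farthest from 0 on the horizontal axis is at 0.30.

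The calls were few and depended on which genes and libraries entered. With a wider filter (means of at least 10 and 50) 0 of 6240 genes passed in limma, with 814 at an unadjusted p under 0.05. The number was 0 without KO input replicate 2, Control input replicate 1, Control input replicate 2 or Control RPF replicate 1, with 163 to 324 genes at an unadjusted p under 0.05, and 1 without KO input replicate 1. It was 420 without KO RPF replicate 1 and 378 without KO RPF replicate 2, when the remaining library was assumed to vary like the other groups. All 40 genes kept their direction without each of the 8 libraries in turn. Leaving out an RPF library could not have turned it, since the TE of KO and Control did not overlap in these genes. An input library could hardly have done so, since their log2 input changes were at most 0.30 in size and their TE changes at least 0.72. Of the 40, 39 were among the 66 genes (2.71% of those tested) that edgeR called on the reads, and 40 among the 103 (4.22%) that DESeq2 called. Hist1h4b, Rps20, Exosc2, Uqcrh and Rpl3 were among the genes that passed in each of 6 other models, namely edgeR, DESeq2, thinned reads, library weights and 2 forms of replicate block.

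**Figure D3:**
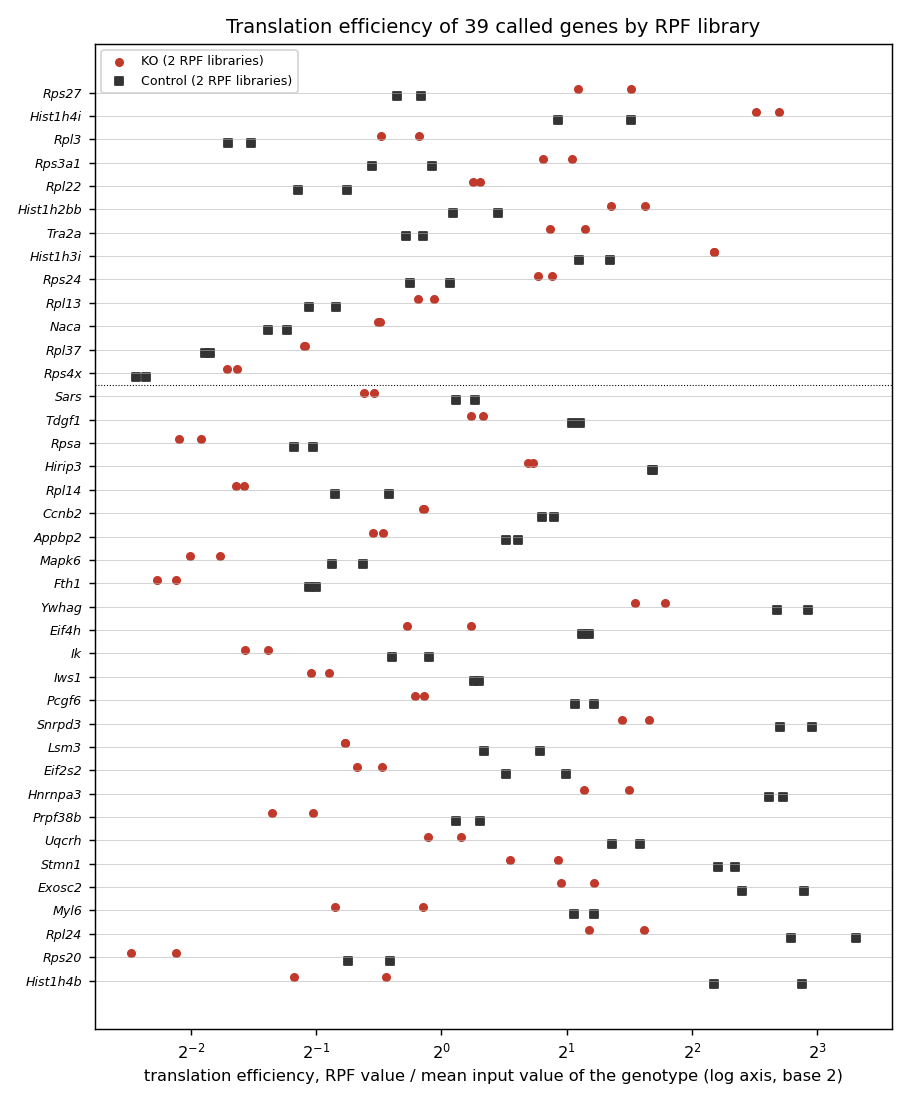
Translation efficiency (RPF value over the mean input value of the genotype, log axis of base 2) of 39 of the 40 called genes in each RPF library, KO as red circles and Control as black squares, with the 13 higher genes above the dotted line and 26 lower ones under it. In every row the 2 KO points lie to one side of the 2 Control points, and the 2 points of a genotype are often far apart, as for Hist1h4b.

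Ribosomal proteins, the protein part of the ribosome itself, held the most calls. Of 79 cytosolic ribosomal protein genes tested, 8 rose and 4 fell (15.2%, against 1.64% of all genes), with a median log2 change of 0.13 against -0.05 over all genes, and 47 had a positive value. Rpl3, a large subunit protein near the peptidyl transferase centre (chromosome 15, 80077791 to 80091868, GRCm38), had RPF values of 3451 and 2799 in KO and of 1150 and 1303 in Control. Its input values were 4006 and 3812 in KO and 3787 and 3683 in Control. Both KO libraries thus carried more RPF signal than either Control library at a like amount of mRNA, and TE rose by 1.27 ± 0.16 on the log2 scale (± SE, limma adjusted p = 0.0224). Rps27, a small subunit protein with a zinc finger, had a TE of 2.13 and 2.86 in KO and of 0.781 and 0.892 in Control. Rps3a1, also of the small subunit, had 2.06 and 1.76 in KO and 0.681 and 0.948 in Control, and Rpl22, a large subunit protein, had 1.19 and 1.24 in KO and 0.452 and 0.592 in Control. The KO values of these genes lay far above the Control values, with log2 changes of 1.55, 1.24 and 1.22 and limma adjusted p-values between 0.0369 and 0.0427. Smaller rises were called for Rps24 (0.92), Rpl13 (0.82), Rpl37 (0.76) and the X-linked Rps4x (0.72).

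The ribosomal protein genes that fell did so by as much. Rps20, a small subunit protein of the ribosome head (chromosome 4, 3831334 to 3835665), had RPF values of 583 and 746 in KO and of 2253 and 1780 in Control. The input values of Rps20 were 3390 and 3106 in KO and 3091 and 2888 in Control, so that TE in KO was 0.307 of that in Control (log2 change -1.71 ± 0.21, limma adjusted p = 0.0224). Rpl24, a large subunit protein at the interface of the subunits, had a TE of 2.26 and 3.07 in KO and of 6.92 and 9.92 in Control (log2 change -1.64). Rpl14 and Rpsa, the second of which encodes the small subunit protein also known as the laminin receptor, had log2 changes of -0.96 and -0.90. The lowest Control value lay above the highest KO value for each of these genes. Rpl36 (1.05) and Rps2 (1.03) did not pass (limma adjusted p = 0.0894 and 0.0597). Ribosomal protein genes have many processed pseudogenes in the mouse, and in the median gene 97.6% of the 28-base windows of the coding sequence also occurred in a transcript of another gene. The methods do not state how a read that matches several genes was counted, and the part of such reads in these changes was not tested.

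**Figure D4:**
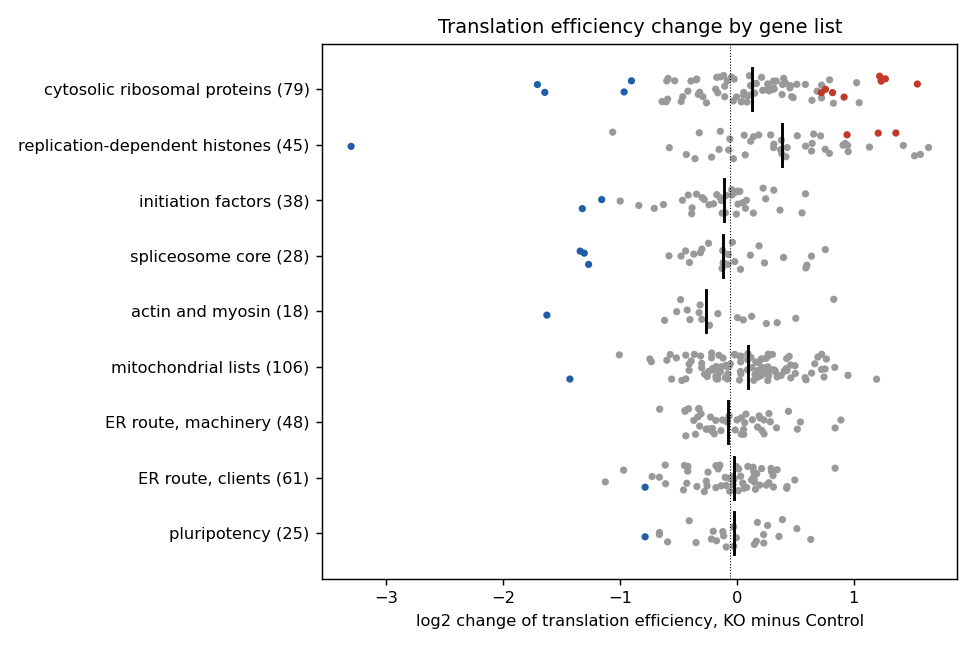
Log2 change of translation efficiency (KO minus Control) of the tested members of 9 gene lists, with the number tested in parentheses, points jittered vertically, called genes in red (higher) and blue (lower), a thick line at each list's median and a dotted line at the median of all genes tested. Ribosomal protein and histone genes spread to both sides, and the lists of the ER route lie around 0 with 1 called gene.

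Replication-dependent histones, which package new DNA in S phase and come from clusters of near-identical genes, showed the largest single change. Hist1h4b, 1 of 12 tested genes for histone H4 (chromosome 13, 23757013 to 23757409), had RPF values of 337 and 560 in KO, from 41 and 36 reads, and of 5324 and 3274 in Control, from 1352 and 1688 reads. The input values of Hist1h4b were 722 and 797 in KO and 706 and 742 in Control. TE of Hist1h4b in KO was 0.101 of that in Control (log2 change -3.30 ± 0.37, limma adjusted p = 0.0224). Hist1h4i, which encodes the same protein (chromosome 13, 22040636 to 22041362), moved the other way. The RPF values of Hist1h4i were 1947 and 2208 in KO and 776 and 1167 in Control, with a log2 TE change of 1.36 ± 0.26 (limma adjusted p = 0.0454).

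The coding sequences of Hist1h4b and Hist1h4i have 296 of 309 bases in common (95.8%), and 160 of their 282 windows of 28 bases are the same at the same place. The lines give coding bases 279 to 306 of GENCODE M21, 5′ to 3′ with the bases unlike Hist1h4b in capitals. In this window Hist1h4b and Hist1h4i differ most, by 5 of 28 bases, while Hist1h4h differs from Hist1h4b by 1.
Hist1h4b, chr13:23757299-23757326, + strand: ccagggccgcaccctctacggattcggg
Hist1h4i, chr13:22041018-22041045, - strand: ccagggccgTacTctGtacggGttcggC
Hist1h4c, chr13:23698144-23698171, - strand: ccagggccgcacTctctacggattcggC
Hist1h4h, chr13:23531393-23531420, + strand: ccagggccgcaccctctacggattcggC
Hist4h4, chr6:136804074-136804101, - strand: ccagggccgcacTctGtacggCttcggC
Coding bases 169 to 196 are the same in 11 of the 12 tested H4 genes, here printed from Hist1h4b, and a footprint on them cannot be assigned to a single gene.
Hist1h4b, chr13:23757189-23757216, + strand: ggtgtgctgaaggtgttcctggagaacg

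Summed over the 12 H4 genes, the RPF value was 26005 and 31568 in KO and 26989 and 33121 in Control, so the sums of the genotypes overlapped, while the values of Hist1h4b and of Hist1h4i did not. The other 10 H4 genes were named after their values were seen and were not called by limma, while edgeR and DESeq2 also called Hist1h4f and Hist1h4h. Hist1h4c, which had the highest RPF of them, had RPF values of 9358 and 13560 in KO and of 9472 and 16344 in Control. Hist1h4h and Hist1h4f had log2 TE changes of 0.76 and 0.79, and Hist4h4, the gene on chromosome 6, had -0.58. Of all 12, 7 had a positive and 5 a negative change.

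**Figure D5:**
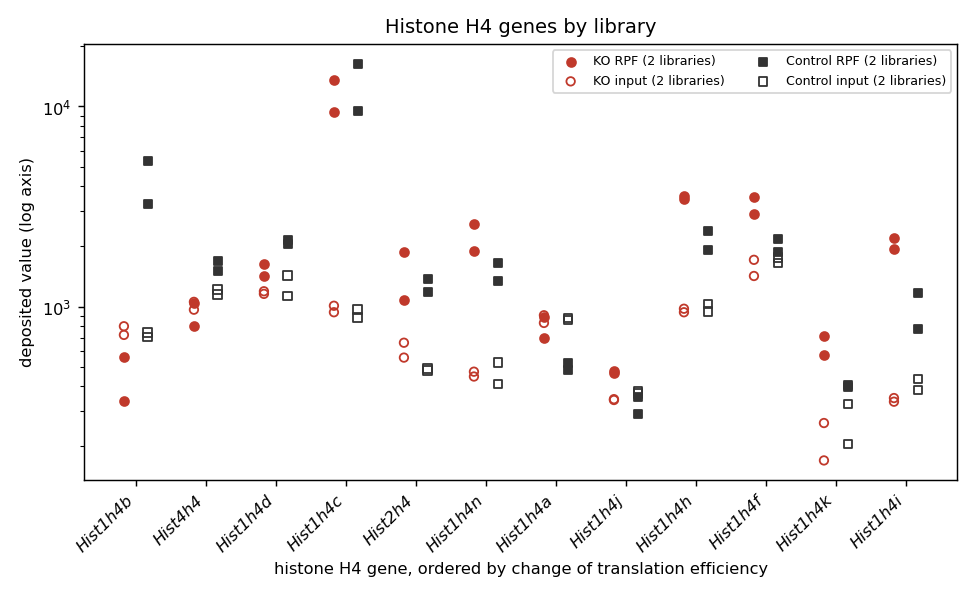
Deposited value (log axis) of the 12 tested histone H4 genes in each library, KO in red on the left and Control in black on the right of each gene, RPF as filled and input as open symbols, ordered by change of translation efficiency. The filled symbols of Hist1h4b lie between 337 and 560 in KO and between 3274 and 5324 in Control, while its open symbols overlap.

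Among all 45 replication-dependent histone genes tested, 3 rose and 1 fell in limma, while edgeR and DESeq2 each called 9 higher and 2 lower. In limma 8.89% were called against 1.64% of all genes, and 48.9% against 15.9% had an unadjusted p under 0.05. The median log2 TE change was 0.38 over all 45 and -0.43 over the 3 of them with at most 10% of their 28-base windows shared. That -0.43 is the value of a single H1 gene, and Hist4h4 (-0.58) is another of the 3. In so few genes, histone class and shared sequence cannot be told apart. Histone H3 genes had the highest median (0.91), and 9 of 9 tested were positive. The summed RPF of the H3 genes was 17041 and 17386 in KO and 8747 and 12004 in Control, and that of the H2B genes was 19752 and 18521 in KO and 12539 and 13528 in Control. Both KO sums lay above both Control sums in each class. Hist1h3i, an H3 gene, had a TE of 4.51 and 4.51 in KO and of 2.14 and 2.54 in Control (log2 change 0.94, limma adjusted p = 0.0441). Hist1h2bb, an H2B gene, had 3.08 and 2.55 in KO and 1.07 and 1.37 in Control (1.21, limma adjusted p = 0.0369). The larger changes of Hist1h2bk (1.64), Hist1h2bj (1.57) and Hist1h3h (1.52) did not pass in limma, with adjusted p-values of 0.0501, 0.0526 and 0.181, while edgeR and DESeq2 called Hist1h2bk and Hist1h2bj. In the median histone gene 81.2% of the 28-base windows also occurred in another gene.

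Initiation factors bring the small ribosomal subunit and the initiator tRNA to the start codon. Of 38 tested genes 2 fell and 0 rose (limma, 5.26% called against 1.64% of all genes, and 23.7% at an unadjusted p under 0.05 against 15.9%), with a median of -0.11. edgeR called 3 lower and 0 higher, and DESeq2 4 lower and 1 higher. Eif2s2, the beta subunit of the factor that brings the initiator tRNA, had a TE of 0.722 and 0.625 in KO and of 1.99 and 1.43 in Control (log2 change -1.32). Its input values were 1616 and 1617 in KO and 1230 and 1388 in Control, the largest input change among the called genes (0.30). Eif4h, which stimulates the helicase eIF4A, had a TE of 0.826 and 1.18 in KO and of 2.27 and 2.18 in Control (-1.16, limma adjusted p = 0.0488). Sars, the cytosolic seryl-tRNA synthetase and the single called gene of 24 tested tRNA synthetase genes (4.17%), had a log2 change of -0.76. Naca, the alpha subunit of the complex that meets nascent chains at the ribosome exit and keeps SRP from those with no signal, rose. The RPF values of Naca were 1093 and 1104 in KO and 547 and 607 in Control (log2 TE change 0.80, limma adjusted p = 0.0454). Eef1a1, which brings aminoacyl-tRNAs to the ribosome, had a log2 change of 0.47 and Tpt1, a growth-related mRNA of the same translational class as the ribosomal proteins, one of -1.08, and neither passed (limma adjusted p = 0.136 and 0.142).

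Of 28 tested genes of the spliceosome core, which removes introns, 3 fell and 0 rose in limma, with a median of -0.11. That is 10.7% called against 1.64% of all genes, and 21.4% against 15.9% at an unadjusted p under 0.05. edgeR called 3 lower and 0 higher. DESeq2, which called 4.22% of all genes, called 3 lower and 2 higher. With the replicate number as a block, limma called 0 of them. Snrpd3, a protein of the Sm ring around spliceosomal RNAs, had a TE of 3.14 and 2.71 in KO and of 7.78 and 6.50 in Control (log2 change -1.27). Lsm3, of the ring on U6 RNA, had 0.586 and 0.588 in KO and 1.26 and 1.73 in Control (-1.31). Prpf38b, a splicing factor gene, changed by -1.34, with only 19 and 8 RPF reads in KO. Ik, which encodes a protein of the activating spliceosome, changed by -1.18, with 20 and 12 RPF reads in KO. Of 28 hnRNP and SR family genes Hnrnpa3 fell (-1.33) and Tra2a, a splicing activator that binds exonic enhancers, rose. That is 7.14% called in limma, with 17.9% at an unadjusted p under 0.05. Tra2a had a TE of 2.21 and 1.82 in KO and of 0.822 and 0.902 in Control (1.20, limma adjusted p = 0.0369), and shares no 28-base window with another gene.

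Exosc2, a cap subunit of the RNA exosome, the nuclear and cytoplasmic 3′ to 5′ decay complex, had RPF values of 633 and 762 in KO and of 1650 and 2325 in Control (chromosome 2, 31670715 to 31681349). Its input values were 323 and 331 in KO and 300.1 and 327 in Control. TE in KO was 0.344 of that in Control (log2 change -1.54 ± 0.25, limma adjusted p = 0.0369), and no window of Exosc2 is shared. The other 12 tested genes of the exosome, uridylation and 5′ decay list were not called, and Exosc3, another cap subunit, had 0.47. The share called in the list was 7.69%, against 1.64% of all genes, and its median was -0.07.

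Mitochondrial genes as a group had a median of 0.09 over 106 tested genes, with 61 positive and 45 negative values (42.5% negative, against 55.8% of all genes). In limma 0 rose and 1 fell, or 0.943% against 1.64% of all genes, with 14.2% against 15.9% at an unadjusted p under 0.05. The counts were 1 and 1 with edgeR and 2 and 2 with DESeq2. The gene that fell was Uqcrh, the hinge protein of respiratory complex III (chromosome 4, 116066965 to 116075071). The RPF values of Uqcrh were 427 and 513 in KO and 1205 and 1406 in Control (log2 TE change -1.43 ± 0.19, limma adjusted p = 0.0233). Uqcrfs1, the Rieske protein of the same complex, had a TE of 2.46 and 3.68 in KO and of 1.17 and 1.43 in Control, a change of 1.20 that did not pass in limma (adjusted p = 0.0796) and passed with edgeR and DESeq2. Cox5b (0.84) of complex IV, Ndufs8 (0.77) of complex I and the import channel gene Timm23 (0.95) did not pass in limma or edgeR, and DESeq2 called Timm23.

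The machinery of the ER route showed no called gene among 48 tested of 105 listed in limma. An unadjusted p under 0.05 in limma was found for 5 (10.4%, against 15.9% of all genes). The median was -0.07 against -0.05 over all genes, and edgeR and DESeq2 called 1, Calm3, higher. The 4 tested genes of SRP and its receptor had changes between -0.22 and -0.08, among them Srpr (-0.22), the receptor subunit that binds SRP, and Srp72 (-0.19). Sec61a1, the pore of the translocon, had RPF values of 493 and 435 in KO and of 386 and 432 in Control, and its log2 TE change was 0.18 ± 0.19. Hspa5, the ER chaperone BiP, had RPF values of 2317 and 1773 in KO and of 2166 and 1509 in Control, and a change of 0.07 ± 0.25. For both genes the KO and Control libraries lay close together or overlapped. Tmem258, a subunit of the oligosaccharyltransferase that adds sugars to new ER proteins, had 0.84 (limma adjusted p = 0.425), and the 14 tested genes of vesicle coats and p24 proteins had a median of -0.19, with Copa of the COPI coat at -0.37.

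Genes of calcium handling, the ER store of which feeds cytosolic signals, had a median of -0.24 over 8 tested, 6 of them negative. Over all genes the median was -0.05, and 55.8% were negative. Atp2a2, the SERCA pump that fills the ER store, had a TE of 0.973 and 0.862 in KO and of 1.32 and 1.18 in Control. Both KO values lay below both Control values, and the change of -0.44 ± 0.15 did not pass (limma adjusted p = 0.234). KO and Control likewise did not overlap, in either direction, for 47.8% of all genes tested. Calm3, a calmodulin gene, had a TE of 2.22 and 1.94 in KO and of 1.03 and 1.19 in Control, a change of 0.89 ± 0.18 just short of the threshold in limma (adjusted p = 0.0556) and past it with edgeR and DESeq2.

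Of the proteins that take the ER route, 251 genes of secreted, surface, TMEM and solute carrier proteins were listed, and 61 passed the filter. Among these were 3 of 79 TMEM and 18 of 99 solute carrier genes, and the clients below the filter were not judged. Of the 61 tested, 0 rose and 1 fell in limma, a share of 1.64% that is also that over all genes. An unadjusted p under 0.05 in limma was found for 9 (14.8%, against 15.9% of all genes). edgeR called 0 higher and 2 lower (Tdgf1 and Slc20a2), and DESeq2 0 higher and 3 lower (Cd9 besides). The median was -0.02, with 29 positive and 32 negative values. The gene that fell was Tdgf1, which encodes Cripto, a GPI-anchored co-receptor of Nodal that marks undifferentiated cells (chromosome 9, 110939603 to 110946158). Tdgf1 had RPF values of 1002 and 1073 in KO and of 1611 and 1681 in Control, against input values of 859 and 848 in KO and of 801 and 765 in Control. The log2 TE change was -0.78 ± 0.14 (limma adjusted p = 0.0441), and 71.0% of the windows of Tdgf1 also occurred in 3 pseudogenes and in 0 other genes. Nid1, a basement membrane protein gene, had a TE of 1.03 and 1.03 in KO and of 1.98 and 2.18 in Control (-0.97), the phosphate transporter gene Slc20a2 had 0.719 and 1.52 in KO and 2.31 and 2.37 in Control (-1.12), and neither passed (limma adjusted p = 0.105 and 0.239). The secreted glycoprotein gene Mfge8 (-0.72) and the tetraspanin gene Cd9 (-0.61) did not pass in limma either. The median SE of a TE change was 0.24 and the smallest change that limma called 0.72, while DESeq2 called smaller ones, that of Cd9 among them.

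Of 25 tested pluripotency genes Tdgf1 was the single call in limma, edgeR and DESeq2 (4%, with 20% at an unadjusted p under 0.05 in limma). Over all genes limma called 1.64%, with 15.9% at an unadjusted p under 0.05. Pou5f1, the transcription factor OCT4, had RPF values of 1545 and 1586 in KO and of 1808 and 1922 in Control, a log2 TE change of -0.22 ± 0.12 (limma adjusted p = 0.394). Nanog had a TE of 3.37 and 2.54 in KO and of 3.67 and 3.09 in Control, with overlapping libraries. Trim71, an RNA-binding repressor of mRNAs in stem cells, had -0.66 and did not pass. The summed input of the 30 listed pluripotency genes was 23780 and 23560 in KO and 24011 and 23775 in Control, so the labelled cell type carried its markers in both genotypes. The summed input of 6 listed markers of primitive endoderm was 1486 and 1567 in KO and 1148 and 1134 in Control. That of 2 trophoblast markers was 341 and 400 in KO and 261 and 242 in Control. Most of the trophoblast sum was Peg10 alone, with 290 and 355 in KO and 202 and 183 in Control. That of 2 fibroblast markers was 73.3 and 75.3 in KO and 63.9 and 56.8 in Control. The 1 listed marker of two-cell-like cells went the other way, with 83.4 and 68.9 in KO and 137 and 110 in Control. The defining primitive endoderm genes Gata4, Gata6 and Sox17 were not analysed here, and the part of such cells in the TE changes was not tested. In bulk libraries, fewer ribosomes per cell and fewer cells that translate a gene cannot be told apart.

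The remaining called genes came from several functions. Myl6, the essential light chain of non-muscle myosin, had a TE of 0.556 and 0.902 in KO and of 2.08 and 2.33 in Control (log2 change -1.62), and 11 of 18 tested actin and myosin genes were negative (61.1%, against 55.8% of all genes), with a median of -0.27. Stmn1, which destabilises microtubules, had RPF values of 764 and 995 in KO and of 2450 and 2684 in Control (log2 TE change -1.53 ± 0.20, limma adjusted p = 0.0224). Ccnb2, a mitotic cyclin, had a TE of 0.906 and 0.903 in KO and of 1.86 and 1.75 in Control (-0.98). Fth1, the ferritin heavy chain whose mRNA is held back by iron regulatory proteins, had a TE of 0.231 and 0.208 in KO and of 0.500 and 0.480 in Control (-1.11), from 21 and 10 RPF reads in KO, and did not pass with edgeR. Pcgf6 (-1.26) of a variant Polycomb complex, the transcription elongation factor gene Iws1 (-1.21) and the 14-3-3 protein gene Ywhag (-1.13) also fell. So did the atypical MAP kinase gene Mapk6 (-1.09), the ubiquitin ligase adaptor gene Appbp2 (-1.04) and the histone chaperone gene Hirip3 (-0.96). RPF reads in KO were few for Pcgf6 (18 and 10), Iws1 (25 and 12), Mapk6 (16 and 10) and Appbp2 (28 and 14). Of the 6 other models, Pcgf6, Mapk6, Appbp2 and Hirip3 passed in 2, edgeR and DESeq2. The 6 MCM helicase genes, which open DNA at replication origins, were not called by limma, edgeR or DESeq2 (3 at an unadjusted p under 0.05 in each). In limma 15.9% of all genes had such a p. Of the 6, 5 were negative (83.3%, against 55.8% of all genes), with Mcm4 (-0.54), Mcm6 (-0.39) and Mcm3 (-0.36) lowest.

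The called genes differed from the others in coding length and shared sequence, which are given here without a test. The filter did not name either, but its values were not divided by length, so a short gene needed more reads per base to pass. Ribosomal protein genes (8 of the 13 higher, 4 of the 27 lower) had a median coding length of 453 bases and 97.6% of windows shared. Histone genes (3 of the 13, 1 of the 27) had 390 bases and 81.2%. The median coding length was 667.5 bases for the 40 called genes and 1554 for all genes tested, and the median was 408 for the 13 higher and 741 for the 27 lower. Of genes with a coding sequence under 500 bases 5.73% were called, and of those over 2000 bases 0.217%. More than 10% of the 28-base windows occurred in other genes for 25 of the 40 called genes (62.5%) and for 584 of all 2439 (23.9%), with 12 of the 13 higher and 13 of the 27 lower genes among them. For Rpl3 the partners were 33 pseudogenes, for Hnrnpa3 47 pseudogenes and 3 other genes, and for Hist1h4b 11 other genes and 0 pseudogenes. The 9 called genes with no shared window included Tra2a, which rose, and Appbp2, Exosc2, Hirip3, Lsm3, Prpf38b, Sars and Snrpd3, which fell. Refitted on the 1855 genes with at most 10% of their windows shared, a choice made after seeing the data, limma called 0 (257 at an unadjusted p under 0.05), with adjusted p-values of 0.0648 to 0.0796 for the 15 called genes among them. By mean RPF value, which the filter did use, the share called was 6.67% over 1000 and 0.695% between 200 and 300, where the fewest reads stood behind each value. Below the filter, the fitted TE change had an SD of 0.60 over 5686 genes, against 0.41 within it, and 9.87% of genes were beyond 2-fold there against 2.62% within.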

How the data were processed

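The analysed table holds, per library, values that the authors deposited as RPKM. They were treated as a signal scale: each deposited value was a whole multiple of 1 step per library, within 0.02 read, for 100% of values, so gene length was not divided out. One read was worth 8.22 and 15.6 units in the KO RPF libraries and 3.94 and 1.94 in the Control RPF libraries. Per the study's methods, rRNA and tRNA reads were removed and the rest aligned to mm10 gene models with Bowtie, allowing a single mismatch. For the aligner, the sources used here name no version. The table also holds the authors' log2 fold change, which was not used, and a deposited class of differential translation, used only to see which way it runs. All 8125 gene identifiers matched GENCODE M21 (GRCm38), from which positions and coding sequences were taken, and 14 symbols stored as dates were replaced.

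TE changes were the interaction of genotype and library kind in limma 3.58.1 (lmFit, eBayes with a mean trend, two-sided, R 4.3.3) on log2(value + 10), so that changes of low genes are understated, with Benjamini-Hochberg adjustment over the 2439 genes and a threshold of 0.05. RPF and input were fitted alike in their 4 libraries. TE of a library is its RPF value over the mean of both inputs of its genotype, since no source ties an input to an RPF library. P-values measure only the spread between libraries of a group, 2 in each. For TE this spread was pooled over input and RPF libraries into 1 variance per gene, moderated over genes. The 2 kinds did not spread alike: the library weights of that alternative were 2.54 to 4.37 for input and 0.186 to 0.485 for RPF. Named genes were every called gene, up to 4 members of each list with the largest change, and Pou5f1, Nanog, Hspa5, Sec61a1 and Atp2a2. One called gene is counted but not reported here. The H4 genes beyond these were named after their values were seen. Members, lists and tests were chosen with earlier results of these data known.

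Alternatives were pseudocounts of 1 and 30, other filters, equalised medians, edgeR 4.0.16 (66 genes called) and DESeq2 1.42.0 (103) on the recovered reads, thinned reads, library weights, replicate blocks and each library left out. The models were tested on simulated data.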

Additional observations from a re-analysis of the deposited data

How the results depend on the processing

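Against 40 genes called for TE, 0 of 6240 passed with the wider filter (lowest adjusted p 0.0820) and 0 of 8125 without a filter (0.104), against 53 (26 higher, 27 lower in KO) of 969 with the stricter filter. edgeR called 66 (31 higher, 35 lower), among them 39 of the 40, and DESeq2 103 (50 higher, 53 lower), among them all 40. Thinned reads left 11, library weights 22 and the replicate number as a block 11, while differences of same-numbered RPF and input libraries gave 47 (24 higher, 23 lower). Between groups, the differences of replicates 1 and 2 correlated at -0.089 to 0.16. This showed no pairing by number but cannot exclude one, since the RPF values rest on few reads. Without a test, the ratio of mean TE in KO over Control, with no pseudocount, was at least 2-fold for 66 genes, against 64 by the fitted change. Pseudocounts and equalised medians gave 39 to 41. Leaving out each library gave 0 to 420 calls for TE, 16 to 296 for RPF (85 with all) and 8 to 36 for input (11 with all). RPF calls were 16 without Control RPF replicate 1, 45 without Control RPF replicate 2, and 291 and 296 without KO RPF replicates 1 and 2. Input calls were 36 and 19 without KO input replicates 1 and 2 and 26 without Control input replicate 2. With the wider filter 39 genes passed for RPF and 20 for input, and with the stricter filter 4 for input. The cause of these differences was not tested beyond the number of genes and libraries each setting leaves.

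In 2 alternatives chosen after seeing the data, 0 of 1855 genes with at most 10% of their windows shared passed (lowest adjusted p 0.0648, 257 at an unadjusted p under 0.05), and 3 of 2315 without ribosomal protein and histone genes. None of the 40 genes changed direction under any alternative run. For a left-out RPF library this had to be so, since their TE in KO and Control did not overlap. The other alternatives reuse the same libraries, so a kept direction is no independent evidence. Among named genes that were not called, leaving out 1 library moved the TE change between -0.19 (without Control RPF replicate 2) and 0.33 for Hspa5, which was also negative (-0.12) without KO RPF replicate 1, and between -0.61 and 0.18 (without Control RPF replicate 2) for Hist1h4c, which was also positive (0.05) without KO RPF replicate 1. Nanog ranged from -0.40 to 0.00032 and Srpr from -0.51 to 0.064, with the highest value without KO RPF replicate 2. The median of ribosomal protein genes was 0.25 without Control RPF replicate 2. That of the 3 histone genes with at most 10% of windows shared was -0.43, the value of a single H1 gene, against 0.38 for all 45. Depth limits KO RPF replicate 2 most, where 2.62% of genes tested had fewer than 10 reads.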
